A study of Homo sapiens with 2 samples.

Results

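The genes described here encode the mitochondrial SLC25 carriers, taken as every probe set that the array annotation maps to exactly 1 gene symbol of the form SLC25A followed by digits, or to UCP1, UCP2, UCP3, MTCH1 or MTCH2. The rule used names only and no measured value, but it was chosen with earlier results of these data known. It gave 104 probe sets for 50 of the 19775 genes named on the array. The study measured total RNA on Affymetrix HG-U133 Plus 2.0 arrays in a pair of groups with 1 array each. In the first, MM.1S cells, an established human multiple myeloma line, were cultured with plasmacytoid dendritic cells (pDCs). In the other, MM.1S cells were cultured alone. The labels give no genotype change, drug, dose, culture time or donor for either group. Since a single array stands for each group, no value has a replicate error (n = 1 per group), no test of a difference was possible, and "higher" and "lower" describe these arrays.

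SLC25 proteins are the transport family of the inner mitochondrial membrane. Each is built from repeated pairs of membrane-spanning helices, and most exchange a substrate of the matrix for one of the cytosol: ADP for ATP, phosphate for hydroxide or with a proton, citrate for malate, aspartate for glutamate. They let a cell export ATP, move reducing power by the malate-aspartate shuttle, feed citrate into lipid synthesis and supply mitochondrial enzymes with cofactors. A few relatives sit elsewhere, such as MTCH1, MTCH2 and SLC25A46 in the outer membrane and SLC25A17 in peroxisomes. Myeloma cells, like plasma cells, secrete protein at a high rate and so draw on mitochondrial ATP.

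The values are MAS5 signals, on a linear scale and with 1 value for each probe set, a group of probes for the same transcript. The median of each array, 115.9 with pDCs and 124 alone, served as a floor, and each gene was represented by its brightest probe set, by mean log2 signal. A ratio is log2 of the signal with pDCs minus log2 of the signal alone, and where the signal exceeded the floor on a single array the ratio is a bound ("at least", or a log2 ratio "or less"). Signals of different probe sets depend on the probes, so levels are not compared between genes. All 10 plasma cell markers on the list were above the floor on both arrays. Of 18 pDC markers, 10 were above it with pDCs and 11 alone, with summed signals of 26853 and 18579. CLEC4C and IL3RA were below it on both arrays, while LILRA4 was above it on both, at 306 with pDCs and 256 alone. TLR7 and PLD4 were above it only with pDCs, and BCL11A, NRP1 and TLR9 only alone. LAMP5 had 19601 with pDCs and 9053 alone, and without it the pDC sums were 7252 with pDCs and 9526 alone. Of the 13 pDC markers with a ratio or a bound, 5 were higher and 8 lower with pDCs by their brightest probe sets (median -0.30). Averaged over all probe sets of a gene, 7 were higher and 6 lower (median 0.26), so the direction of these markers depended on the probe sets. GZMB had 174 with pDCs and 604 alone. The ratio of 3' to 5' signal, a measure of RNA integrity and labelling, was 8.09 with pDCs and 19.5 alone for ACTB, and 2.46 with pDCs and 3.07 alone for GAPDH. The part of RNA integrity or of pDC RNA in the ratios below was not tested. The labels do not say whether pDCs were removed before RNA extraction, so whether the first array includes pDC RNA is not known. If it does, fewer cells of a type and less RNA per cell cannot be told apart.

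Most carriers had similar signals on the 2 arrays. Of the 50 genes, 39 were above the floor on both arrays, 4 on a single array, and 7 on neither. Among the 43 with a ratio or a bound, 17 were higher and 26 lower with pDCs. By ratio or bound, SLC25A10, the dicarboxylate carrier, was at least 2-fold higher (1 of 43, 2.33%, against 3.20% of all measured genes), and SLC25A34 was at least 2-fold lower (1 of 43, 2.33%, against 4.56%). The 4 carriers above the floor on a single array had bounds under 2-fold, so whether they pass 2-fold was not measured. At 1.5-fold, 4 carriers were higher (9.30%, against 11.6% of all genes) and 6 of 43 were lower (against 15.5%). These shares were near or under those of the whole array. The median log2 ratio of the carriers was -0.11, with a middle range from -0.36 to 0.16, beside a median of -0.04 over all 14254 measured genes, whose middle range ran from -0.40 to 0.31. The share of positive ratios was 39.5% for the carriers and 47.2% for all genes.

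**Figure D1:**
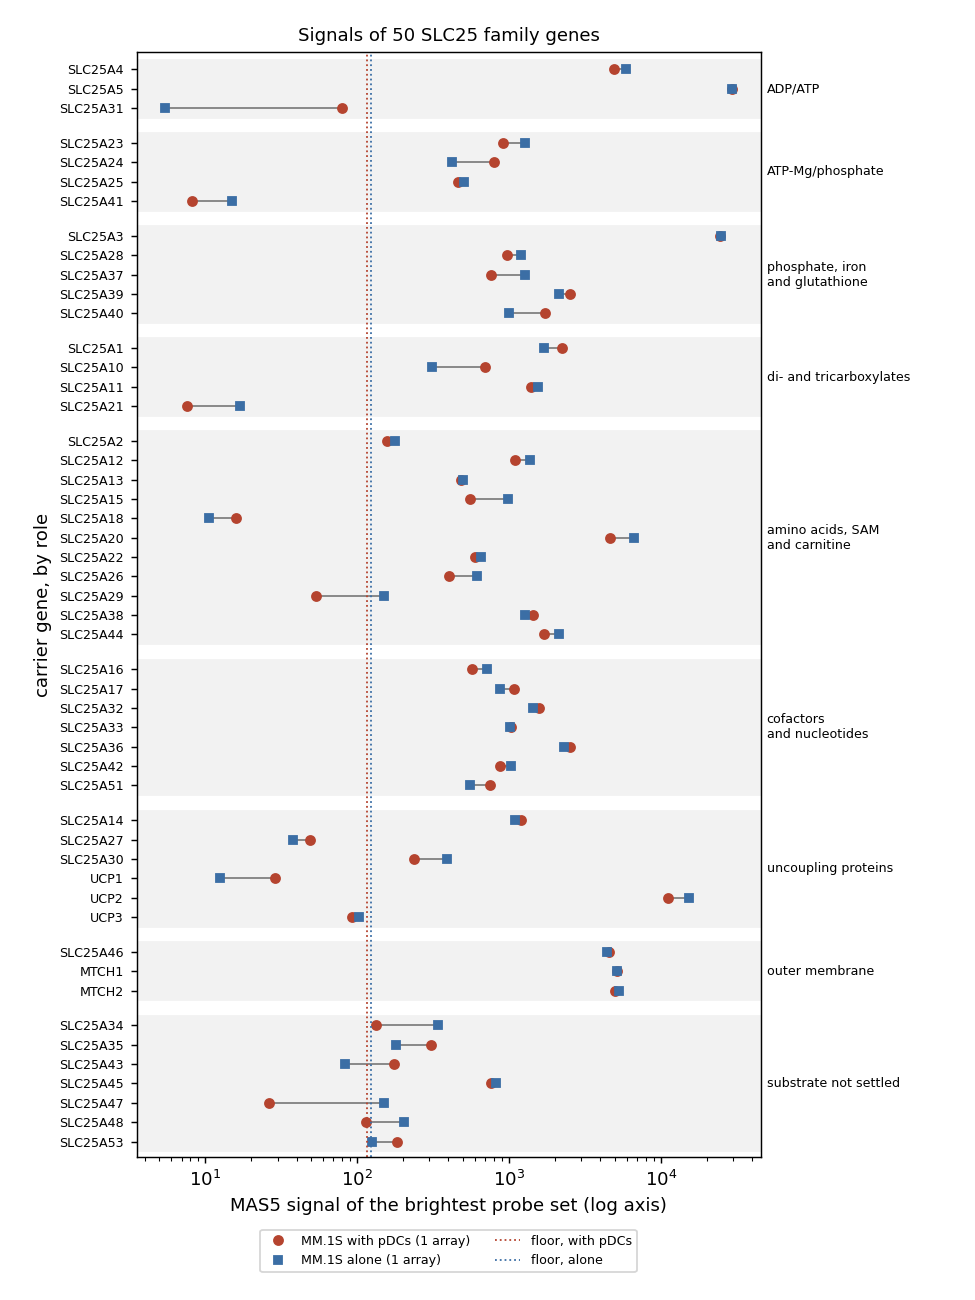
MAS5 signals (log axis) of the brightest probe set of each of 50 SLC25 family genes, grouped by role, on the array of MM.1S cells with pDCs (circles) and alone (squares), 1 array each. Dotted lines are the floors at 115.9 and 124, and for 7 genes both points lie below them; positions of different genes are not comparable.

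**Figure D2:**
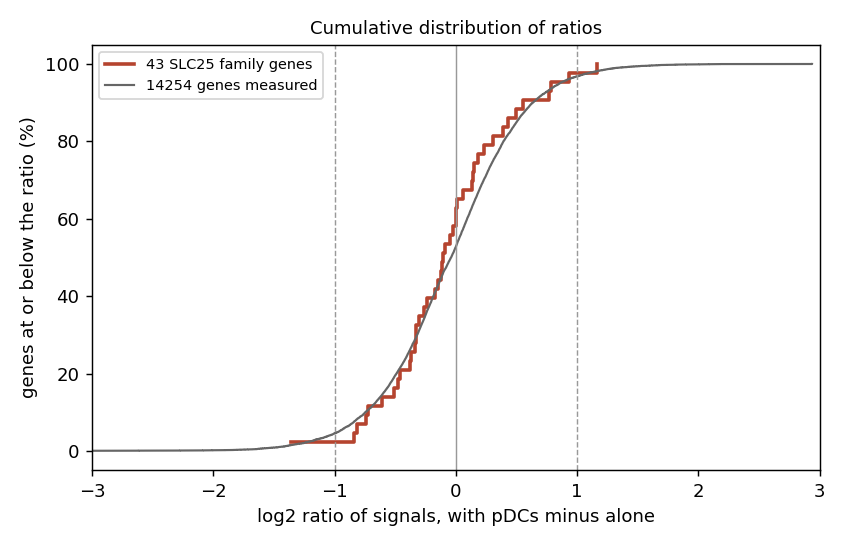
Cumulative share (%) of genes at or below each log2 ratio, with pDCs minus alone, for 43 SLC25 family genes and for the 14254 genes measured. Dashed lines mark 2-fold, which 1 carrier passed on each side by ratio or bound, and the medians were -0.11 and -0.04.

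The spread among the carriers differed with brightness. The 19 carriers with a signal of at least 1000 on both arrays had log2 ratios from -0.51 to 0.78 and a median size of 0.15, and 0 of them were past 2-fold, against 1.92% of the 4749 genes this bright. The remaining 24 had ratios or bounds from -1.36 to 1.16 with a median size of 0.45, and 2 of them (8.33%) were past 2-fold, against 10.7% of genes in the same range.

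The other check on a ratio was a further probe set of the same gene. For 18 carriers, the brightest probe set and at least 1 more exceeded the floor on both arrays. They pointed the same way in 9 of the 18, against 60.6% of 4844 genes. Counted over the 76 carrier probe sets with a ratio or a bound, 2 were at least 2-fold higher (2.63%, against 4.25% of all named probe sets) and 3 were at least 2-fold lower (3.95%, against 4.73%). The median difference between their log2 ratios was 0.49 for the carriers and 0.38 for all genes, which is larger than the median size of a carrier's ratio (0.33). A ratio below about this size is therefore no larger than what separates probe sets of the same gene on the same pair of arrays. The carriers whose probe sets pointed the same way were SLC25A40, SLC25A24, SLC25A14 and SLC25A46 on the higher side, and UCP2, SLC25A44, SLC25A28, SLC25A13 and SLC25A45 on the lower side.

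**Figure D3:**
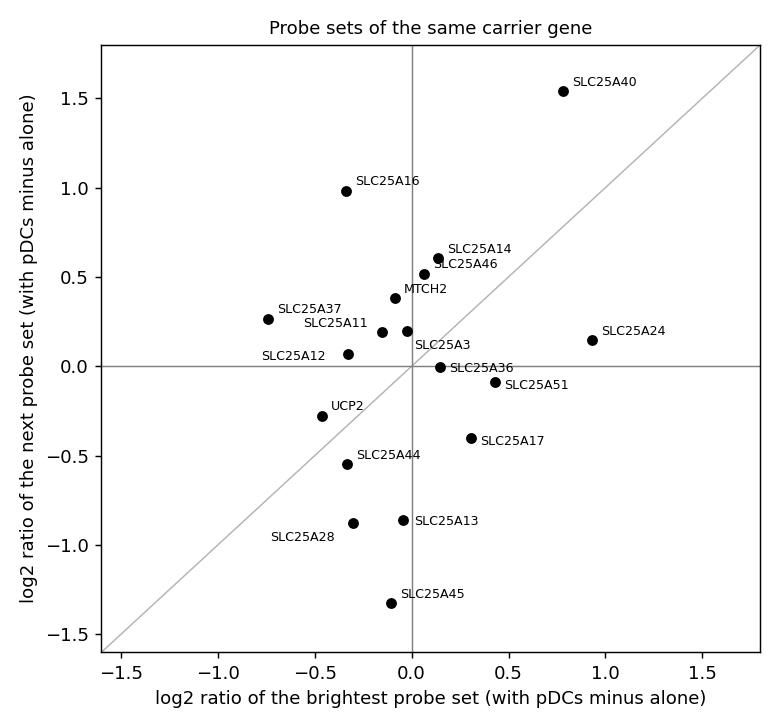
Log2 ratio (with pDCs minus alone) of the brightest probe set (x axis) against that of the next (y axis) for the 18 carriers with a pair of such probe sets; the diagonal marks equal ratios. Of the 18, 9 lie at upper right or lower left, where both ratios have the same sign, and SLC25A40 lies farthest out at 0.78 and 1.54.

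Among carriers of di- and tricarboxylates, SLC25A10 exchanges malate or succinate for phosphate. It had a signal of 698 with pDCs and 313 alone, which is 2.23-fold higher (log2 ratio 1.16), and 1.88% of measured genes had a ratio as high. It has 1 probe set. SLC25A1, the citrate carrier that feeds cytosolic acetyl-CoA, had 2235 with pDCs and 1703 alone (0.39), also on 1 probe set. SLC25A11, the oxoglutarate-malate carrier of the malate-aspartate shuttle, had 1396 with pDCs and 1549.9 alone (-0.15), with 0.19 on its other probe set. SLC25A21, which carries oxoadipate, was below the floor on both arrays (7.62 with pDCs and 16.9 alone). The 3 measured members thus had a median of 0.39, with 2 higher and 1 lower.

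Carriers whose substrate is not settled held the lowest ratio among carriers above the floor on both arrays. SLC25A34 had 133 with pDCs and 342 alone, which is 2.56-fold lower (-1.36), and 1.52% of measured genes had a ratio as low. Its signal with pDCs lies just above the floor, and its other probe set was below the floor on both arrays, at 40.5 with pDCs and 41.8 alone. SLC25A45 had 759.7 with pDCs and 819 alone (-0.11), but its other probe set had 137 with pDCs and 342 alone (-1.32). SLC25A35 had 306 with pDCs and 180.3 alone (0.77), and SLC25A53 had 185 with pDCs and 126 alone (0.55). These 4 were the members of the group above the floor on both arrays, and their ratios lay on either side of 0. For the remaining 3 only bounds were available. SLC25A43, at 175 with pDCs and 82.8 alone, was at least 1.41-fold higher. SLC25A48, at 115 with pDCs and 204 alone, was at least 1.76-fold lower, and SLC25A47, known from liver, at 26.4 with pDCs and 150.3 alone, was at least 1.30-fold lower.

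SLC25A40, which imports glutathione into mitochondria, was the carrier with the highest ratio on a second probe set. It had 1722 with pDCs and 1003 alone on its brightest probe set (0.78) and 361 with pDCs and 124.5 alone on the other (1.54), where the signal alone lies just above the floor. Its paralog SLC25A39, which carries out the same import, had 2507 with pDCs and 2135 alone (0.23) on 1 probe set. SLC25A37 and SLC25A28, the mitoferrins that bring iron to heme and iron-sulfur synthesis, were lower on their brightest probe sets. SLC25A37 had 767 with pDCs and 1282 alone (-0.74). Of its 9 probe sets above the floor on at least 1 array, 6 were lower, down to a bound of -0.90 or less, and 3 were higher, up to 0.40. SLC25A28 had 975 with pDCs and 1202 alone (-0.30), and its other probe sets gave -0.87 and -0.20. SLC25A3, which supplies phosphate for ATP synthesis, had 24502 with pDCs and 24929 alone (-0.02), with 0.20 on its other probe set.

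To show the regions from which SLC25A34, past 2-fold on the lower side, and SLC25A40, higher on both probe sets, are transcribed, the 250 bases before the annotated RefSeq start (GRCh38.p14) follow, 5' to 3' on the gene's strand, with matches to a set of promoter motifs in capitals. SLC25A34 spans chr1:15736258-15741392 and SLC25A40 spans chr7:87833568-87876360.
SLC25A34, chr1:15736008-15736257, plus strand: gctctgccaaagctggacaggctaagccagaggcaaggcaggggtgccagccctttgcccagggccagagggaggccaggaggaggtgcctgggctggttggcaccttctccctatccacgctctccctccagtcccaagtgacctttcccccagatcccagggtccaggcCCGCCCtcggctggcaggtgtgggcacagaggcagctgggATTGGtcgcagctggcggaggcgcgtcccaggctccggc
SLC25A40, chr7:87876361-87876610, minus strand: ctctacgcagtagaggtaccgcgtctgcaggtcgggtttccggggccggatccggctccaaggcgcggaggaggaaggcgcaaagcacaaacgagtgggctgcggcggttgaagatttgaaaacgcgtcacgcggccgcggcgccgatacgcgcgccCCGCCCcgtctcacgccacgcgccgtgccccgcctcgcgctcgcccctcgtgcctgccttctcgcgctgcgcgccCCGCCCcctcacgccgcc
The motifs searched on both strands were the GC box GGGCGG, the CCAAT box CCAAT, the E-box CACGTG, the ETS core CCGGAAG, the TATA box TATAAA and TGCGCA, the repeated unit of the site of the nuclear respiratory factor NRF1, and no marked matches overlap. SLC25A34 holds 1 GC box and 1 CCAAT box and SLC25A40 holds 2 GC boxes, all on the reverse strand. Neither window holds a TATA box or any other motif of the set. The share of G and C was 68.4% for SLC25A34 and 72.8% for SLC25A40.

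The promoter table held 56 windows for 43 of the 50 carriers, some overlapping. Their median share of G and C was 65.8%, against 58.4% over 34961 windows of all genes. A GC box stood in 66.1% of carrier windows and 42.7% of all windows, an ETS core in 19.6% and 8.52%, an E-box in 16.1% and 6.35%, a CCAAT box in 37.5% and 32.0%, and a TATA box in 7.14% and 10.7%. The NRF1 unit stood in 7.14% of carrier windows and 6.90% of all windows. Base composition differs between these sets, and a match describes letters only. SLC25A34 and SLC25A40 are both among the 31 carriers with a GC box.

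ADP/ATP carriers export the ATP made by oxidative phosphorylation. SLC25A5, the form of dividing cells, had 29438 with pDCs and 29464 alone, a log2 ratio of 0.00 to 2 decimals. SLC25A4, the form known from heart and muscle, had 4899.7 with pDCs and 5882 alone (-0.26), and its other probe set was below the floor on both arrays. SLC25A31, the form of the testis, was below the floor on both arrays (80.2 with pDCs and 5.44 alone). SLC25A6 had no probe set under the naming rule and is not analysed here. RefSeq names 9 SLC25A5 pseudogenes, and near-identical copies may share probes, which leaves the SLC25A5 signal uncertain. The same limit may hold for other carriers with named pseudogenes. Among them are SLC25A1 and SLC25A15 with 5 each, SLC25A51 and MTCH2 with 4 each, SLC25A3 with 3 and SLC25A24 with 2.

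ATP-Mg/phosphate carriers adjust the matrix adenine nucleotide pool, and SLC25A23, SLC25A24 and SLC25A25 respond to calcium. SLC25A24 had 802 with pDCs and 420.3 alone, 1.91-fold higher (0.93), the highest ratio after SLC25A10 among carriers above the floor on both arrays, while its other probe set gave 0.15 at 142 with pDCs and 128 alone. SLC25A23 had 915 with pDCs and 1271 alone (-0.47), and its other probe set went the opposite way, at 149.6 with pDCs and 22.2 alone, at least 1.21-fold higher. SLC25A25 had 461 with pDCs and 503 alone (-0.13). SLC25A41 was below the floor on both arrays. The paralogs thus did not share a direction.

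Of 10 measured carriers of amino acids, S-adenosylmethionine (SAM) and carnitine, 9 had a negative ratio or bound, against 7526 of 14254 genes. Their median was -0.33, against a median of -0.04 over all genes. Some of these ratios were small or changed sign on another probe set, as given below. None of the 9 above the floor on both arrays reached 2-fold. SLC25A15, which brings ornithine into the matrix and citrulline out in the urea cycle, had 551 with pDCs and 984 alone, 1.79-fold lower (-0.84), the lowest of these 9. Its other probe set was below the floor on both arrays. SLC25A26, which imports SAM for mitochondrial methylation, had 403 with pDCs and 616 alone (-0.61). SLC25A20, which takes acylcarnitines into the matrix for fatty acid oxidation, had 4639 with pDCs and 6617 alone (-0.51), each on 1 probe set.

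Of the aspartate-glutamate carriers of the malate-aspartate shuttle, SLC25A12 had 1089.9 with pDCs and 1368 alone (-0.33), with 0.07 on its other probe set. SLC25A13 had 481 with pDCs and 496 alone (-0.05), with -0.86 on the next probe set and a bound of -0.63 or less on another. SLC25A44, which takes up branched-chain amino acids, had 1698 with pDCs and 2137 alone (-0.33), and its other probe set gave -0.55. Only SLC25A44 of these 3 had probe sets lower by a similar amount. The glutamate carrier SLC25A22 had 601 with pDCs and 651 alone (-0.12), and the ornithine carrier SLC25A2 had 158 with pDCs and 178 alone (-0.17). SLC25A29, a carrier of basic amino acids, was at least 1.30-fold lower (53.9 with pDCs and 151 alone), a bound that leaves its distance from 2-fold unmeasured, and SLC25A18 was below the floor on both arrays. SLC25A38, which supplies glycine for heme synthesis, was the only higher member, with 1445 with pDCs and 1274.5 alone (0.18).

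**Figure D4:**
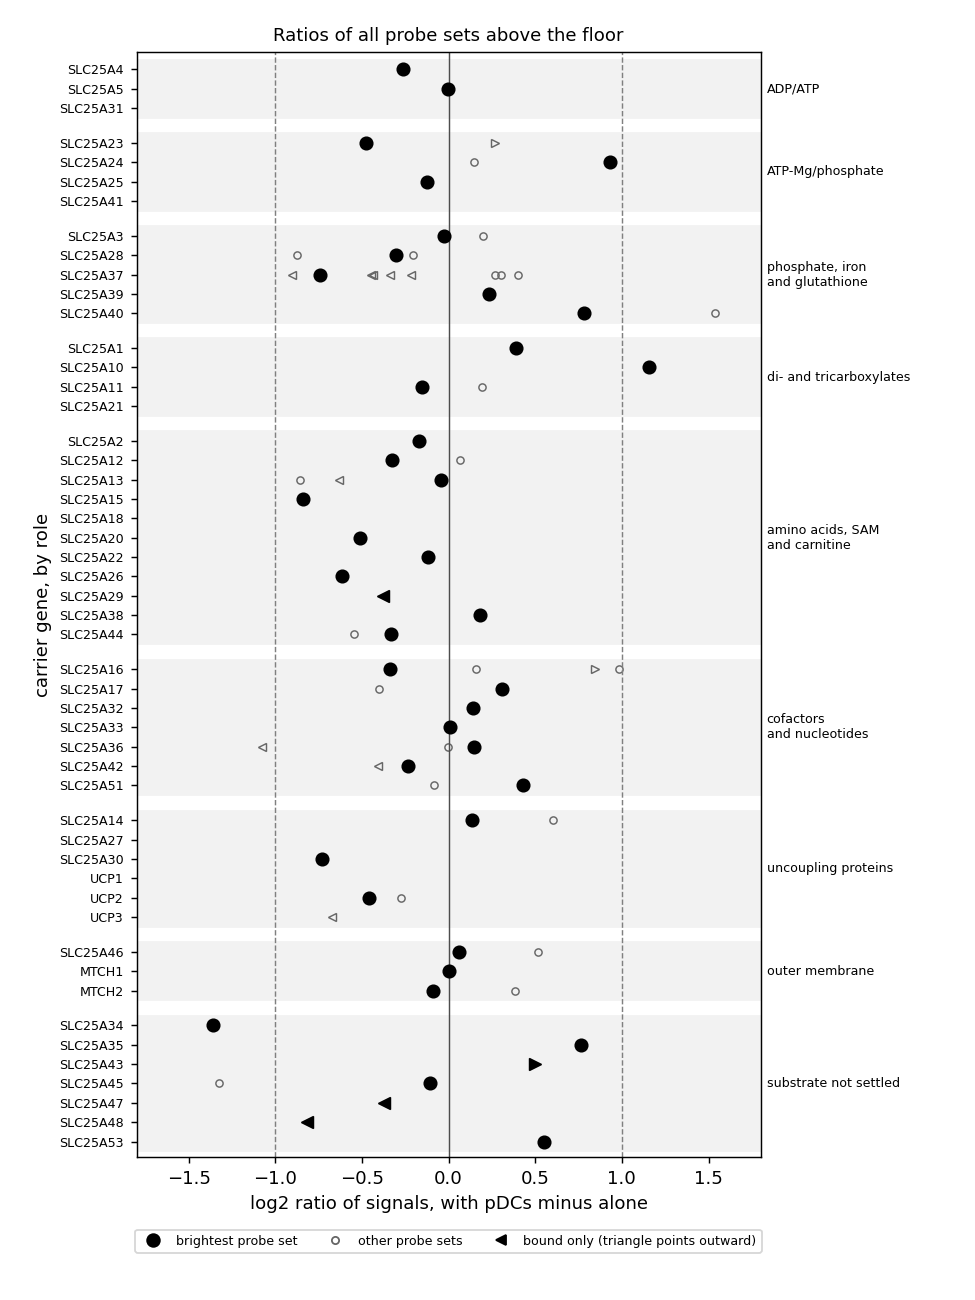
Log2 ratios (with pDCs minus alone) of all probe sets above the floor on at least 1 array, by carrier gene and role. Large symbols are the brightest probe set, small open symbols the others, triangles are bounds and dashed lines mark 2-fold. By their brightest probe set, 9 of 10 amino acid, SAM and carnitine carriers lie left of 0, against 7526 of 14254 measured genes.

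Carriers of cofactors and nucleotides had 5 of 7 measured members higher by their brightest probe sets, with a median of 0.14 and none past 1.5-fold. Over all measured genes, 47.2% were higher, with a median of -0.04. SLC25A51, the NAD+ carrier, had 749.9 with pDCs and 557 alone (0.43), with -0.09 on its other probe set. SLC25A17, the peroxisomal carrier of CoA and related nucleotides, had 1081 with pDCs and 874 alone (0.31), with -0.40 on the other. SLC25A16, linked to CoA, had 568 with pDCs and 718 alone (-0.34), but 3 further probe sets were all higher, up to 0.98, where the x_at probe set had 642 with pDCs and 325 alone. The direction of these 3 genes thus depended on the probe set.

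Of the pyrimidine nucleotide carriers, SLC25A33 had 1025 with pDCs and 1018 alone (0.01). SLC25A36 had 2532 with pDCs and 2289 alone (0.15), with 0.00 on another probe set and a bound of -1.08 or less on another that was below the floor with pDCs (52.0 with pDCs and 244 alone). SLC25A32, which brings folate into mitochondria, had 1585 with pDCs and 1436 alone (0.14). SLC25A42, a CoA carrier, had 877 with pDCs and 1033 alone (-0.24). By the brightest probe sets, the ratios of these 4 were smaller than the median difference between probe sets of a carrier. SLC25A52 had no probe set under the naming rule and is not analysed here.

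Among uncoupling proteins and their relatives, UCP2, a form found in immune cells that exports aspartate and related metabolites from the matrix, had 11130.4 with pDCs and 15323.5 alone, 1.38-fold lower (-0.46). Its other probe set had 1774 with pDCs and 2149 alone (-0.28), so both were lower. SLC25A30 had 236 with pDCs and 391 alone (-0.73), with its 3 other probe sets below the floor on both arrays. SLC25A14 had 1209.9 with pDCs and 1101 alone (0.14), and 0.61 on its other probe set. UCP1, the heat-producing form of brown fat, and SLC25A27, a form known from brain, were below the floor on both arrays on all their probe sets. UCP3, the form of skeletal muscle, was below it on its brightest probe set (92.7 with pDCs and 103.1 alone), while another had 45.6 with pDCs and 185 alone, at least 1.60-fold lower.

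The outer-membrane relatives had the smallest ratios of the groups by their brightest probe sets. MTCH1 had 5181 with pDCs and 5176 alone, and MTCH2, an insertase for outer-membrane proteins that also binds the apoptosis protein BID, had 5028 with pDCs and 5339.9 alone (-0.09), with 0.38 on its other probe set. SLC25A46, which acts in mitochondrial shape and lipid transfer, had 4587 with pDCs and 4394 alone (0.06), with 0.52 on the other. The 3 brightest probe sets thus differed by at most 0.09 in either direction.

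Genes that act with the carriers were described from lists of partners, which were chosen with earlier results of these data known. Carriers are brought into the inner membrane by the TOM pore, small TIM chaperones and the TIM22 complex. Of 13 such genes, 11 were lower with pDCs and 2 higher, none past 2-fold, with a median of -0.29. Over all measured genes, 7526 of 14254 were lower, with a median of -0.04. The small chaperone TIMM9 had 1699 with pDCs and 2767 alone (-0.70), and TIMM10B had 690.2 with pDCs and 1069 alone (-0.63), with -0.67 on its other probe set. TOMM22, a receptor of the pore, went the opposite way, with 3130.5 with pDCs and 1822 alone (0.78), and from 0.35 to 0.92 over its 3 probe sets.

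Enzymes of ornithine and glutamate metabolism, which work with SLC25A15 and the glutamate carriers, had a median of -0.30. Of 8 measured members, 3 were past 2-fold lower and 0 past 2-fold higher, beside 4.56% and 3.20% of all measured genes. The list was chosen with earlier results of these data known, so these counts describe its members and do not test the list. ASS1, which joins citrulline and aspartate, had 4307 with pDCs and 18274 alone, 4.24-fold lower (-2.08) on 1 probe set. PYCR1, of proline synthesis, had 1209.8 with pDCs and 2487 alone (-1.04). The mitochondrial arginase ARG2 had 122 with pDCs and 349 alone (-1.51), but 0.41 on its other probe set. OAT, which turns ornithine into a proline precursor and was chosen after its values were seen, had 5199.7 with pDCs and 2987 alone (0.80), so the list held large ratios of both signs.

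The carnitine shuttle and fatty acid oxidation list had 5 of 9 members higher and 4 lower (median 0.16), where 47.2% of all measured genes were higher. CPT2, which acts in the matrix just after SLC25A20, had 1649.99 with pDCs and 906 alone (0.86), and 1.43 on its other probe set. HADHA, of the trifunctional protein, had 10115.5 with pDCs and 5917 alone (0.77), over a range from -0.20 to 0.77. CRAT, carnitine acetyltransferase, had 288 with pDCs and 483 alone (-0.75), and -0.86 on its other probe set. CPT1A had -0.47 on its brightest probe set and ranged from -0.53 to 1.35 over 4. SLC25A20 itself was on the lower side at -0.51.

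Over all measured genes, the share of positive ratios was 47.2% and the median -0.04, beside which the counts of the next 3 lists stand. Enzymes of the malate-aspartate and citrate shuttles, the partners of SLC25A1, SLC25A11, SLC25A12 and SLC25A13, had 4 of 12 higher and 8 lower, with a median of -0.05. IDH2 had -0.66, with -0.65 on its other probe set. ME2 had 0.48, the lowest of its 3 probe sets, which reached 1.17. OGDH had 0.57 on its brightest probe set but ranged from -0.23 to 0.57 over 3. Folate enzymes had 6 of 11 higher (median 0.10), with the glycine cleavage genes GLDC at 0.80 and DLD at 0.78, while SHMT1 was at least 1.86-fold lower (40.7 with pDCs and 216 alone). Iron-sulfur and heme genes, which use the iron that mitoferrins bring in, had 9 of 15 higher and 6 lower (median 0.02), but the 3 with the largest ratios were lower: HSCB at -0.98, ISCU at -0.80 and ALAS1 at -0.74, each on 1 probe set. Averaged over all probe sets of a gene, 4 of these 15 were higher and 11 lower (median -0.14). By brightest probe sets, none of the genes of these 3 lists above the floor on both arrays was past 2-fold. For SHMT1 and AMT, which have bounds only, this was not measured. On other probe sets, by ratio or bound, ME2 reached 1.17, while IDH1 went down to -1.27 and MTHFD2L to -1.01.

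Of 19 measured mitochondrial transporters outside the family, 12 were lower and 7 higher (median -0.30), where 47.2% of all measured genes were higher (median -0.04). By brightest probe sets, MICU2, a gatekeeper of the calcium uniporter, was the only one past 2-fold of the 18 above the floor on both arrays. It had 2441 with pDCs and 1164 alone (1.07) on 1 probe set, and 3.20% of all measured genes were at least 2-fold higher. On other probe sets, by ratio or bound, VDAC1 reached 1.51, ABCB8 1.41 and LETM1 1.33, while SFXN4 went down to -1.04. SFXN3 was at least 1.59-fold lower (57.2 with pDCs and 184 alone). The uniporter pore MCU had -0.68, and the serine transporter SFXN1 had -0.72, with 0.25 on its other probe set. Regulators of mitochondrial gene expression had 7 of 12 higher (median 0.16), and also 7 when averaged over all probe sets of a gene (median 0.05). GABPB1 had -0.79 and 0.82 on its 2 probe sets, TFAM ranged from -1.04 to 1.26 over 4, and PPARGC1A had 0.55.

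**Figure D5:**
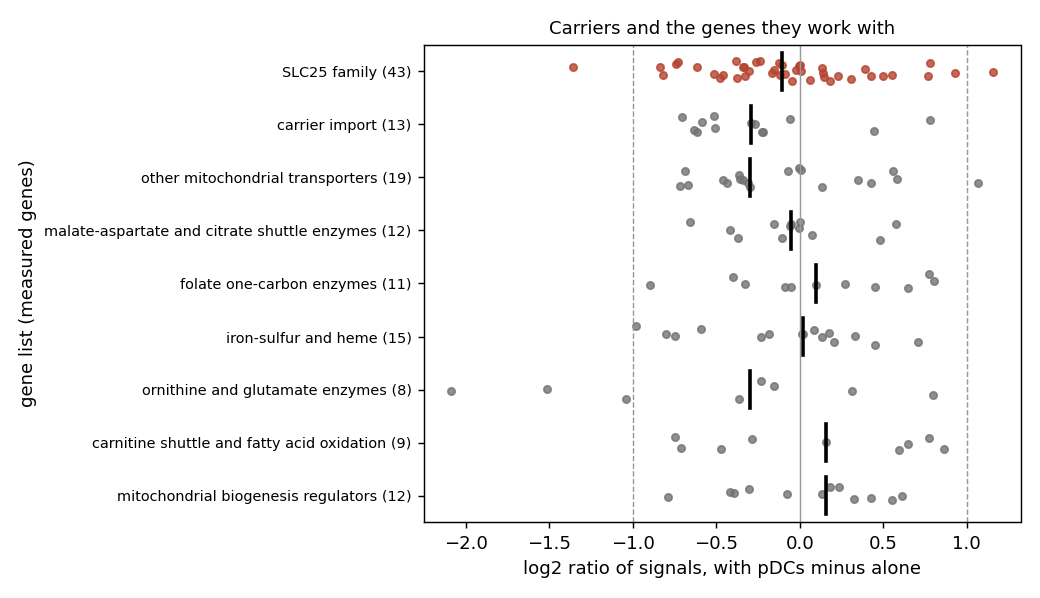
Log2 ratios (with pDCs minus alone) of 43 SLC25 family genes and of the genes in 8 partner lists; points are genes by their brightest probe set, black bars are medians and dashed lines mark 2-fold. The ratios and bounds of the carriers span -1.36 to 1.16 around a median of -0.11, and ASS1 at -2.08 is the lowest point of all lists.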

How the data were processed

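Total RNA of MM.1S cells was measured on a pair of HG-U133 Plus 2.0 arrays, grouped by sample title. The deposited intensity values are linear and came from MAS5, according to the submitters' processing notes. The MAS5 version and any present or absent calls are not stated there. After trimming 2% at each end, the mean signal was 499.9 on both arrays, so a shift shared by nearly all transcripts cannot be seen.

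Of 54675 probe sets, 41091 had 1 symbol in the platform annotation, of which 41037, and all 104 of the carriers, matched RefSeq genes of GRCh38.p14. Signals below an array's median were set to it; 154 genes above the floor on a single array gave no usable bound and were left out. The fold threshold was 2. The members were chosen by name only, but they, the lists, the rule for named genes and the alternatives were chosen with earlier results of these data known. Named were carriers past 2-fold, the 3 largest ratios per role and list, preset carriers, and carriers whose probe sets differed by over 2-fold; promoters replace proteins, which are not used here. Alternatives were median centring, quantile normalization, loess (span 0.3), a floor at the 30th percentile, at the 70th, or absent, log2(signal + 50), the mean over probe sets, leaving out x_at and s_at probe sets, and thresholds of 1.5-fold and 3-fold. A median was called unchanged within 0.1 (log2) and a count within 1.5 times. The number of arrays limits the precision. Python 3.11.15 with numpy 2.4.6, pandas 2.3.3, statsmodels 0.14.6 and matplotlib 3.10.9 was used, and the calculation was tested on simulated data.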

Additional observations from a re-analysis of the deposited data

How the results depend on the processing

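Under 9 alternatives of scaling, floor and probe set, the median log2 ratio of the carriers stayed between -0.15 and -0.08. With 1 carrier at least 2-fold higher and 1 at least 2-fold lower as reported, the counts of higher and lower carriers were 2 and 3 with a floor at the 30th percentile, 4 and 4 with no floor, 2 and 2 for log2(signal + 50), 4 and 6 at 1.5-fold and 0 and 0 at 3-fold. With the mean over probe sets 2 were higher, and a floor at the 70th percentile gave 0 lower by ratio or bound. Lower floors let dimmer probe sets past the threshold by construction. With the 30th percentile, 8.59% of all genes were at least 2-fold higher and 11% lower, against 4.35% and 6.52% of carriers. With no floor these shares were 12% and 14%, against 8% and 8% of carriers. For log2(signal + 50) they were 5.69% and 7%, against 4% and 4% of carriers. With the mean over probe sets they were 2.36% and 3.42%, against 4.55% and 2.27% of carriers. With the 70th percentile they were 1.91% and 2.03%, against 2.70% and 0% of carriers. SLC25A10 was past 2-fold in all 9 alternatives, at 1.05 to 1.19, and SLC25A34 in 8 of 9. In the other, the floor at the 70th percentile, the signal of SLC25A34 with pDCs fell below the floor. This left a bound of -0.27 or less, so whether it passes 2-fold there was not measured. With 1 probe set above each floor, SLC25A10 kept the same ratio by construction when the floor or the choice of probe sets changed. Of 43 carriers, 34 kept 1 direction in all alternatives and 9 did not, among them SLC25A3, SLC25A5, SLC25A11, SLC25A12, SLC25A16, SLC25A17, SLC25A33, SLC25A36 and MTCH2. A change of floor cannot reverse a direction, nor can a change of probe set for a carrier with 1 probe set. The count of 34 is thus partly fixed in advance. Of amino acid, SAM and carnitine carriers, 7 to 9 were lower (median -0.41 to -0.17). Of carrier import genes, 7 to 11 were lower (median -0.59 to -0.25). Medians of uncoupling proteins, of cofactor and nucleotide carriers, of phosphate, iron and glutathione carriers, of iron-sulfur genes and of pDC markers changed sign in at least 1 alternative. No paired analysis was possible because each group had 1 array. For SLC25A34, SLC25A53 and the bounds, signals close to the floor limit what can be measured.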
